A study of Homo sapiens with 18 samples.

Results

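The E2F transcription factors and the retinoblastoma (pocket) proteins were described here at the RNA level in RPE1 cells, an immortalised human line derived from retinal pigment epithelium. The 10 genes were taken by symbol from the deposited expression table of 57773 gene identifiers, and all 10 were found: E2F1, E2F2, E2F3, E2F4, E2F5, E2F7, E2F8, RB1, RBL1 and RBL2. The study held 18 libraries in 6 groups of 3. The groups were cytochalasin D 4N, cytochalasin D 2N, ZM447439 4N, ZM447439 2N, untreated 4N and untreated 2N cells. Cytochalasin D blocks actin polymerisation and so prevents cytokinesis, ZM447439 inhibits Aurora kinases, and cells were sorted by DNA content after staining with a Hoechst dye (2 µg/mL, 60 min). The labels give 2.5 µM ZM447439 for 24 h, and they repeat this text for every library, with no separate dose or time for cytochalasin D. All groups were grown in 10% fetal bovine serum, and the labels name no genetic change in any of them. A 4N sort of cycling untreated cells takes cells in G2 and mitosis, whereas a 4N sort after failed cytokinesis can also take cells that returned to G1 with doubled DNA.

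E2F factors bind promoters of genes for DNA replication and cell-cycle entry, mostly as dimers with a DP protein. Hypophosphorylated pocket proteins bind E2F factors and hold those genes down, and phosphorylation by cyclin-dependent kinases releases them. E2F1, E2F2 and E2F3 are known as activators that pair mainly with RB1, E2F4 and E2F5 as repressors that work with RBL1 (p107) and RBL2 (p130), and E2F7 and E2F8 as atypical repressors that bind DNA without DP. Several of these genes, E2F1 and RBL1 among them, are themselves known E2F targets, and p130 is known as the pocket protein of non-dividing cells.

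Of the 10 genes, 7 had a RefSeq promoter window (GRCh38.p14, 250 bases before to 50 after the start) at their own start. The windows were searched on both strands for 4 E2F motif spellings, TTTCCCGC, TTTCGCGC, TTTGCCGC and TTTGGCGC. At least 1 spelling was present for 4 genes (E2F1, E2F2, E2F3 and RBL1), against 4.0% of all 27305 genes with a window, and no spelling was present in the windows of E2F4, E2F7 and RBL2. The E2F1 and RBL1 windows each held 2 motifs, which 0.15% of all 35116 windows did. The entry for RB1 lies inside the gene and was left out, and E2F5 and E2F8 had no entry. The 250 bases before the start are shown 5′ to 3′ on the gene's strand, with the motifs in capitals, for the 3 genes with a motif that were among the lowest under both drugs and for RBL2, the one gene that was higher.
E2F1, chr20:33686386-33686635, minus strand: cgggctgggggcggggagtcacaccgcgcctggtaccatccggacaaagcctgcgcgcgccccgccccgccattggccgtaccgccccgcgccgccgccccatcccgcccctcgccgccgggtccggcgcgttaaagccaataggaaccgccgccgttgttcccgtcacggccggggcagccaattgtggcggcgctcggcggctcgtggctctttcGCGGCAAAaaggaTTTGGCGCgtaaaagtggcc
E2F2, chr1:23531234-23531483, minus strand: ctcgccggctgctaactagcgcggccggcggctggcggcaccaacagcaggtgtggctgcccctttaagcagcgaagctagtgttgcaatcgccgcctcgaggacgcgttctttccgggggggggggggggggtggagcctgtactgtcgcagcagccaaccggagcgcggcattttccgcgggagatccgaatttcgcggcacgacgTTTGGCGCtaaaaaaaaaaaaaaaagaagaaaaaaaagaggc
RBL1, chr20:37095998-37096247, minus strand: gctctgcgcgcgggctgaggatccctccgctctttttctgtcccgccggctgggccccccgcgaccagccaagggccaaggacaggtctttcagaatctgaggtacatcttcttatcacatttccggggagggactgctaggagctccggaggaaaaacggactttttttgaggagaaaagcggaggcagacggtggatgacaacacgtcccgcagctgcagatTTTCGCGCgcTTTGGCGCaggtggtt
RBL2, first of 2 windows, chr16:53434221-53434470, plus strand: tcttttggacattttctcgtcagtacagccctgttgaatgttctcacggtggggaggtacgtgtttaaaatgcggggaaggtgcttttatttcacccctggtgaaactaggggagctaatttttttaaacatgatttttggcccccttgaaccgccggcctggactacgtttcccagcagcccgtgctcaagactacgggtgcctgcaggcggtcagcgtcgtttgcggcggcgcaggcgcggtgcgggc
In E2F1 the motifs began 33 and 20 bases before the start, in RBL1 26 and 16 bases, and in E2F2 the single motif began 42 bases before it. A match describes letters only, and its absence says nothing about binding.

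Values are deposited RPKM, reads scaled to library size and to kilobases of gene span (introns included), so genes with long introns have low values: 6 of the 10 had a mean under 0.5 RPKM. Whole reads could be recovered from the values, and per library they ran from 53 for E2F2 to 8055 for RB1. Library sizes inferred from the steps of the values were 51135642 to 78294394 reads. Their basis is uncertain, since the recovered reads of all genes add up to 0.972 to 1.13 of them. Tests used limma on log2(RPM + 0.5) over 20106 genes, with Benjamini-Hochberg adjustment and a threshold of 0.05. RPM here is the deposited RPKM multiplied by the gene's reference span, which leaves scaling to library size alone. All 10 genes passed the filter on low values. Differences are log2, first-named group minus second, with the standard error (SE). Nothing in the labels says that replicates came from separate cultures, so p-values measure the spread between these libraries. In each group 1 library stood apart from the other pair, at a root-mean-square log2 distance from the nearer of them that was 1.70 to 2.41 times the distance between them: replicate 1 in both sorts of both drugs and replicate 3 in both untreated sorts. Of markers for the line's origin, MITF had 1677 to 2670 reads and OTX2 1293 to 2363, while RPE65 (0 to 39 reads) and TYR (3 to 20) were near 0, and BEST1 and PMEL overlap FTH1 and CDK2 on the other strand, from which their reads cannot be told apart. The 5 blood-cell markers summed to at most 0.324 RPM per exon kb.

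The 6 groups also differed in 6 genes of G2 and mitosis (CCNB1, CDC20, PLK1, AURKA, BUB1 and CENPF). Their summed level was 39.9 to 41.0 RPM per exon kb in cytochalasin D 4N cells, 15 to 27.7 in cytochalasin D 2N, 61.6 to 95.3 in ZM447439 4N, 16.2 to 40.2 in ZM447439 2N, 476 to 497 in untreated 4N and 148 to 203 in untreated 2N cells. All 6 genes were lower under each drug in each sort, by limma. Each library is a bulk RNA pool, so fewer cells in a phase that expresses a gene and less RNA per cell cannot be told apart, and the part of cell-cycle phase in the results for the E2F and pocket genes was not tested.

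Under both drugs the activator genes and RBL1 fell and RBL2 rose. In 4N cells all 10 genes passed the test for each drug: 9 were lower and RBL2 was higher. The background was high, at 72.2% of all tested genes for cytochalasin D and 57.1% for ZM447439, so the number of genes called is not a result about this family. In direction, 40% of tested genes were lower and 32.2% higher under cytochalasin D, and 32.4% lower and 24.7% higher under ZM447439. The median difference of the 10 genes was -1.18 for cytochalasin D and -0.82 for ZM447439, beside -0.06 and -0.04 over all tested genes. In 2N cells 9 of 10 passed for each drug, 8 lower and RBL2 higher (background 68.2% for cytochalasin D, with 35.5% lower and 32.6% higher, and 56.3% for ZM447439, with 29.6% lower and 26.7% higher). E2F5 was the exception in 2N cells, with differences of -0.12 (SE 0.06) and -0.06 (SE 0.06). The drug comparisons within a sort share their untreated libraries.

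**Figure D1:**
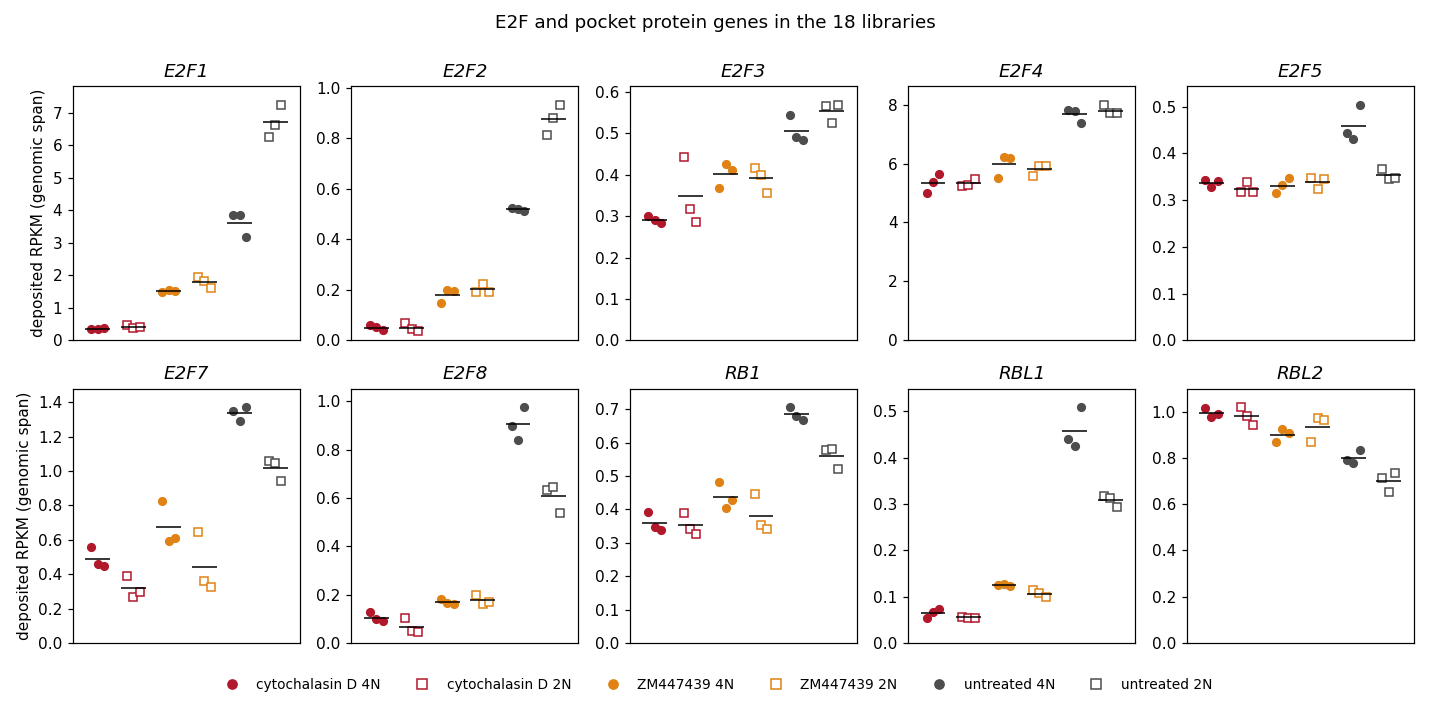
Deposited RPKM (y, linear from 0, own scale per gene) of each of the 10 genes in the 3 libraries of each group, with the group mean as a bar; filled circles are 4N and open squares 2N sorts. E2F1 lies at 0.345 to 0.474 RPKM under cytochalasin D and 3.17 to 7.25 in untreated cells, whereas RBL2 is highest under cytochalasin D.

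E2F1, the activator best known for driving S-phase entry, fell under both drugs in both sorts. It had 0.351, 0.345 and 0.377 RPKM in cytochalasin D 4N libraries and 0.474, 0.368 and 0.414 in cytochalasin D 2N libraries. It had 1.49, 1.55 and 1.52 RPKM in ZM447439 4N libraries and 1.94, 1.81 and 1.61 in ZM447439 2N libraries. Untreated 4N libraries had 3.86, 3.85 and 3.17 RPKM and untreated 2N libraries 6.26, 6.62 and 7.25. The 3 treatments did not overlap in either sort, with cytochalasin D lowest and untreated highest. Cytochalasin D 4N cells differed from untreated 4N cells by -3.18 (SE 0.10, adjusted p = 8.94e-13), a 9.05-fold lower level, and ZM447439 4N cells by -1.22 (SE 0.10, adjusted p = 5.01e-08). Among 2N cells the cytochalasin D difference was -3.86 (SE 0.10, adjusted p = 1.60e-13) and the ZM447439 difference -1.88 (SE 0.10, adjusted p = 2.01e-09). Reads ran from 194 in the lowest library to 5257 in the highest.

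E2F2, a closely related activator, followed the same order at a lower level. Its RPKM was 0.0606, 0.0515 and 0.0400 in cytochalasin D 4N and 0.0689, 0.0439 and 0.0378 in cytochalasin D 2N libraries. ZM447439 4N libraries had 0.147, 0.199 and 0.197 RPKM and ZM447439 2N libraries 0.190, 0.223 and 0.193. Levels were 0.525, 0.521 and 0.511 RPKM in untreated 4N and 0.812, 0.881 and 0.932 in untreated 2N libraries. Treatments did not overlap in either sort, but the 2 sorts overlapped under each drug. The difference from untreated in 4N cells was -2.94 (SE 0.15) for cytochalasin D and -1.43 (SE 0.15) for ZM447439, and in 2N cells -3.69 (SE 0.15) and -2.01 (SE 0.15). Per exon length E2F1 stayed well above E2F2: within a library the ratio of reads per exon kb averaged 6.89 ± 1.78 in cytochalasin D 4N, 8.07 ± 1.29 in ZM447439 4N and 6.58 ± 0.64 in untreated 4N cells (SD, n = 3 each).

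E2F3, the third activator, fell much less. It had 0.300, 0.290 and 0.284 RPKM in cytochalasin D 4N libraries, 0.368, 0.425 and 0.411 in ZM447439 4N libraries and 0.544, 0.492 and 0.484 in untreated 4N libraries. In 2N cells the values were 0.442, 0.318 and 0.286 RPKM under cytochalasin D, 0.417, 0.400 and 0.356 under ZM447439 and 0.566, 0.524 and 0.569 untreated. The cytochalasin D 2N library at 0.442 lay above the other pair of its group. A 7SL-type pseudogene on the opposite strand inside E2F3, RN7SL128P, had 974 reads there, 38.4% of that library's 2535 E2F3 reads, and 1.7% to 16.3% in the other libraries. Genes nested in others appear to be counted for both, since in 1597 of 1657 such pairs the host had at least 98% of the nested gene's reads in every library. E2F3 differed from untreated 4N cells by -0.79 (SE 0.12) in cytochalasin D 4N cells and by -0.33 (SE 0.12, adjusted p = 0.0237) in ZM447439 4N cells. Without the RN7SL128P reads, an alternative chosen after seeing the data, these were -0.90 and -0.38. The ZM447439 call in 4N cells was lost without untreated 4N replicate 1 or ZM447439 4N replicate 1, at an adjusted p of 0.0906 each, and with quantile normalization (adjusted p = 0.203). The 2N differences were -0.68 (SE 0.12) with cytochalasin D and -0.50 (SE 0.12) with ZM447439, or -0.94 and -0.60 without those reads.

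The repressor genes moved little. E2F4, whose protein binds many promoters in resting cells, had 5.00 to 5.65 RPKM in cytochalasin D 4N, 5.23 to 5.49 in cytochalasin D 2N, 5.52 to 6.22 in ZM447439 4N, 5.59 to 5.91 in ZM447439 2N, 7.38 to 7.82 in untreated 4N and 7.70 to 7.99 in untreated 2N libraries. Drug and untreated libraries did not overlap, and the sorts overlapped within each treatment. E2F4 was lower by limma in all 4 drug comparisons, with differences of -0.52 (SE 0.06) and -0.36 (SE 0.06) in 4N cells and -0.54 (SE 0.06) and -0.42 (SE 0.06) in 2N cells for cytochalasin D and ZM447439 in turn. E2F5, its close relative, had 0.328 to 0.342 RPKM in cytochalasin D 4N, 0.315 to 0.347 in ZM447439 4N and 0.431 to 0.504 in untreated 4N libraries. In 2N cells it had 0.317 to 0.339 RPKM under cytochalasin D, 0.324 to 0.348 under ZM447439 and 0.346 to 0.368 untreated, so untreated 4N was the one group that stood clear. Cytochalasin D gave a 4N difference of -0.43 (SE 0.06, adjusted p = 1.69e-05), and ZM447439 one of -0.46 (SE 0.06, adjusted p = 1.88e-05). E2F5 partly overlaps RBIS on the other strand, which had 105.1% to 141.7% of its reads, and the libraries carry no strand, so how many E2F5 reads belong to RBIS is unknown.

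Both atypical repressors fell, E2F8 more than E2F7. E2F8 had 0.127, 0.0988 and 0.0895 RPKM in cytochalasin D 4N libraries and 0.103, 0.0507 and 0.0465 in cytochalasin D 2N libraries. ZM447439 4N libraries had 0.182, 0.165 and 0.162 RPKM and ZM447439 2N libraries 0.198, 0.160 and 0.169. In untreated cells the values were 0.898, 0.840 and 0.975 RPKM for 4N and 0.635, 0.647 and 0.539 for 2N libraries. Every drug library was below every untreated one. In 4N cells cytochalasin D gave -2.81 (SE 0.17, adjusted p = 6.45e-10) against untreated and ZM447439 gave -2.23 (SE 0.17, adjusted p = 3.52e-08), and the 2N differences -2.78 (SE 0.17) and -1.64 (SE 0.17). The antisense gene CSRP3-AS1 overlaps E2F8 and had at least as many reads in every library, up to 114.3% of them, so reads from these genes cannot be told apart, and the values hold for both together.

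E2F7 had 0.560, 0.460 and 0.446 RPKM in cytochalasin D 4N libraries and 0.389, 0.267 and 0.299 in cytochalasin D 2N libraries. With ZM447439, 4N libraries had 0.826, 0.593 and 0.613 RPKM and ZM447439 2N libraries 0.646, 0.359 and 0.327. Untreated 4N libraries had 1.35, 1.29 and 1.37 RPKM and untreated 2N libraries 1.06, 1.05 and 0.941. In each of the 4 drug groups the library numbered 1, which stood apart over all genes, was the highest, as it was for E2F8 and RB1. Against untreated 4N cells the cytochalasin D difference was -1.44 (SE 0.20, adjusted p = 9.56e-06) and the ZM447439 one -0.99 (SE 0.20, adjusted p = 0.000631). In 2N cells they were -1.65 (SE 0.20) and -1.24 (SE 0.20). Per exon length E2F7 exceeded E2F1 under cytochalasin D, at 2.25 ± 0.34 times in 4N and 1.24 ± 0.09 times in 2N cells, and was below it in the other groups, at 0.734 ± 0.156 in ZM447439 4N, 0.402 ± 0.126 in ZM447439 2N, 0.612 ± 0.086 in untreated 4N and 0.250 ± 0.033 in untreated 2N cells (SD, n = 3 each). Both drug-treated and untreated 4N cells had a higher ratio than the 2N cells of the same treatment. Intron reads count in these levels, and E2F7 spans 44.3 kb against 10.7 kb for E2F1. Whether a transcript ratio lies above or below 1 is therefore uncertain.

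The 3 pocket proteins diverged. RBL1, which encodes p107 and is most abundant in cycling cells, had 0.0534, 0.0660 and 0.0729 RPKM in cytochalasin D 4N libraries and 0.0569, 0.0544 and 0.0549 in cytochalasin D 2N libraries. ZM447439 4N libraries had 0.125, 0.128 and 0.124 RPKM and ZM447439 2N libraries 0.114, 0.107 and 0.0989. Untreated 4N libraries had 0.441, 0.425 and 0.508 RPKM and untreated 2N libraries 0.316, 0.313 and 0.294. Treatments did not overlap in either sort, in the same order as for E2F1. RBL1 differed from untreated by -2.75 (SE 0.09, adjusted p = 2.43e-12) under cytochalasin D and by -1.82 (SE 0.09, adjusted p = 1.19e-09) under ZM447439 in 4N cells, a 6.73-fold and a 3.54-fold difference. In 2N cells the differences were -2.37 (SE 0.09) and -1.49 (SE 0.09).

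RBL2, which encodes p130, was the one member that rose. It had 1.02, 0.975 and 0.991 RPKM in cytochalasin D 4N libraries and 1.02, 0.982 and 0.940 in cytochalasin D 2N libraries. With ZM447439, 4N libraries had 0.869, 0.925 and 0.907 RPKM and ZM447439 2N libraries 0.868, 0.974 and 0.964. Untreated 4N libraries had 0.790, 0.780 and 0.834 RPKM and untreated 2N libraries 0.712, 0.654 and 0.734. Drug libraries were above the untreated ones of the same sort without overlap, by small amounts. The cytochalasin D difference was 0.31 (SE 0.06, adjusted p = 0.000149) in 4N cells, and the ZM447439 difference 0.17 (SE 0.06, adjusted p = 0.0204). In 2N cells it was 0.48 (SE 0.06, adjusted p = 1.77e-06) and 0.41 (SE 0.06, adjusted p = 1.67e-05). The 4N call for ZM447439 was lost when untreated 4N replicate 1 or 2, or ZM447439 4N replicate 2 or 3, was left out (adjusted p between 0.0550 and 0.0737). AKTIP overlaps the end of RBL2 on the other strand and had 29.3% to 45.2% of its reads. How many reads the overlap shares is unknown.

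RB1, the retinoblastoma gene itself, had 0.393, 0.349 and 0.339 RPKM in cytochalasin D 4N libraries and 0.390, 0.342 and 0.327 in cytochalasin D 2N libraries. ZM447439 4N libraries had 0.481, 0.404 and 0.427 RPKM and ZM447439 2N libraries 0.447, 0.354 and 0.343. Untreated 4N libraries had 0.706, 0.681 and 0.668 RPKM and untreated 2N libraries 0.577, 0.580 and 0.521. Drug and untreated libraries of a sort did not overlap, while both drugs overlapped each other in 2N cells. Against untreated 4N cells cytochalasin D gave -0.93 (SE 0.10, adjusted p = 4.55e-07) and ZM447439 -0.65 (SE 0.10, adjusted p = 4.35e-05), with the 2N differences -0.66 (SE 0.10) and -0.56 (SE 0.10).

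The ranges of the 6 groups were compared over all 15 pairs of groups for each gene, as a description. The same counts were not made over all tested genes, so they are not a result about this family. For E2F1 the order by mean RPKM, highest first, was untreated 2N, untreated 4N, ZM447439 2N, ZM447439 4N, cytochalasin D 2N and cytochalasin D 4N, and the 2 cytochalasin D sorts were the 1 pair that overlapped. RBL1 had untreated 4N highest, then untreated 2N, ZM447439 4N and ZM447439 2N, with the same single overlap. For E2F2 and E2F8 the sorts overlapped within either drug, and no other pair did. E2F7 had 3 overlapping pairs, all with ZM447439 2N: with ZM447439 4N, cytochalasin D 4N and cytochalasin D 2N. RB1 had 4 overlapping pairs and RBL2 had 3, all between drug groups, and both untreated sorts stood apart from them and from each other. For E2F3 and E2F4, with 5 overlapping pairs each, the untreated sorts overlapped each other and stood above the drug groups. E2F5 had 8 overlapping pairs, and untreated 4N stood above the other 5 groups.

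**Figure D2:**
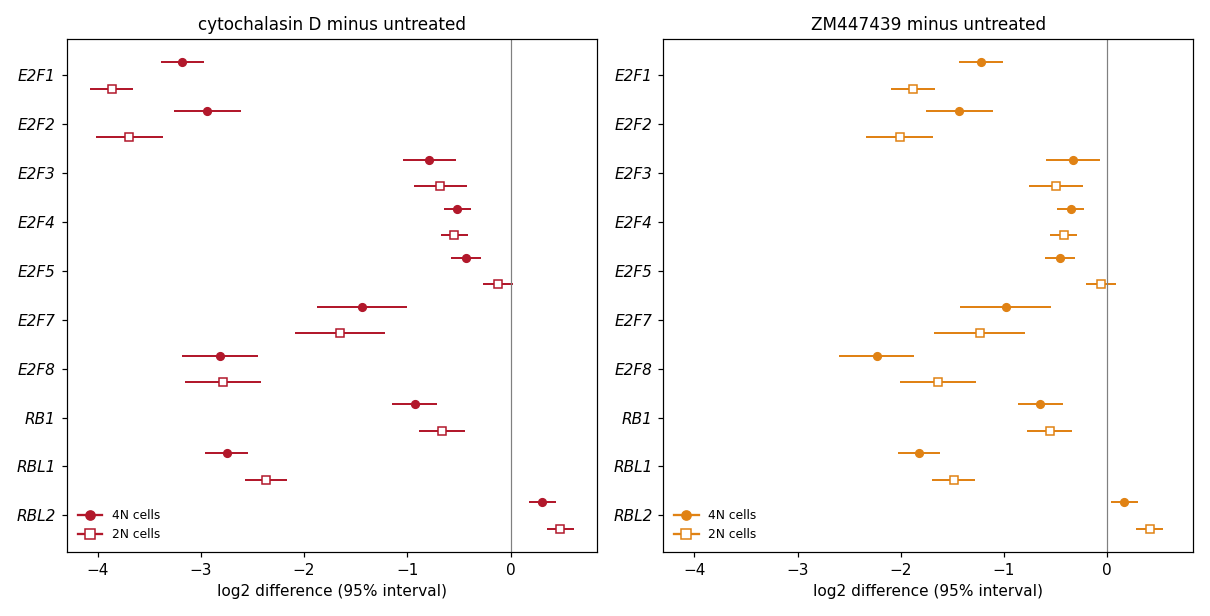
Log2 difference (x) of each drug from untreated cells for the 10 genes, with 95% intervals from limma; filled circles compare 4N and open squares 2N cells. RBL2 is the one gene right of 0, and E2F1, E2F2, E2F8 and RBL1 lie furthest left under both drugs.

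The balance of pocket protein transcripts within a library differed between treatments. Reads per exon kb of RBL2 over RBL1 were 7.44 ± 1.35 in cytochalasin D 4N, 8.33 ± 0.23 in cytochalasin D 2N, 3.38 ± 0.10 in ZM447439 4N, 4.16 ± 0.51 in ZM447439 2N, 0.827 ± 0.048 in untreated 4N and 1.07 ± 0.10 in untreated 2N cells (SD, n = 3 each). The ranges of the 3 treatments did not overlap. RB1 had the highest level per exon length of the 3 in every group, at 9.95 ± 0.79 RPM per exon kb in cytochalasin D 4N, 12.1 ± 1.1 in ZM447439 4N and 18.9 ± 0.5 in untreated 4N cells. RBL2 had 7.83 ± 0.16, 7.09 ± 0.22 and 6.31 ± 0.23 in the same groups, and RBL1 1.07 ± 0.17, 2.10 ± 0.03 and 7.67 ± 0.74. Intron reads count in these levels, which raises long genes such as RB1. Among the E2F genes the ratio of E2F4 to E2F1 per exon kb was 6.57 ± 0.30 in cytochalasin D 4N, 5.67 ± 0.74 in cytochalasin D 2N, 1.73 ± 0.08 in ZM447439 4N, 1.44 ± 0.17 in ZM447439 2N, 0.936 ± 0.077 in untreated 4N and 0.514 ± 0.047 in untreated 2N cells. E2F1 was the gene with the highest level per exon length in untreated 2N cells, at 28.7 ± 2.1 RPM per exon kb, followed by RB1 at 15.5 ± 0.9 and E2F4 at 14.7 ± 0.3, which overlapped.

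**Figure D3:**
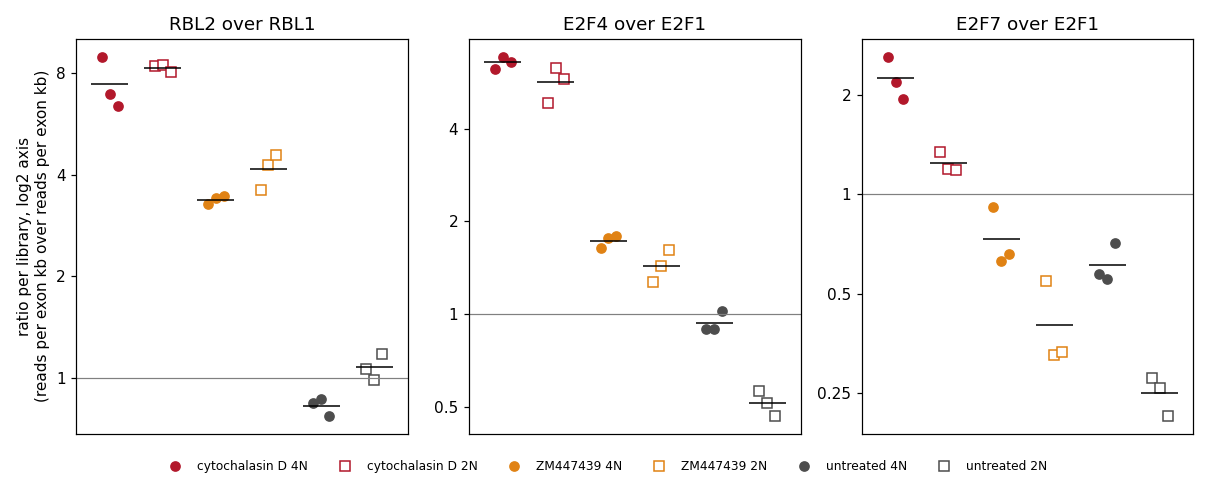
Ratio within each library (y, log2 axis) of reads per exon kb for RBL2 over RBL1, E2F4 over E2F1 and E2F7 over E2F1, with the group mean as a bar and the grey line at 1. For the first 2 ratios the cytochalasin D libraries sit highest and the untreated ones lowest.

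The 2 drugs were compared directly. Cytochalasin D cells were lower than ZM447439 cells for 7 of 10 genes in 4N cells (background 43.5%, with 25.1% lower and 18.4% higher) and 4 of 10 in 2N cells (background 38.1%, with 21% lower and 17.1% higher), and none was called higher. RBL2 in 4N cells did not pass (0.14, SE 0.06, adjusted p = 0.0533), but was called higher after median-ratio rescaling (0.17, adjusted p = 0.0129), after quantile normalization (0.20, adjusted p = 0.00603), with a filter of 2 RPM (adjusted p = 0.0472) and without untreated 2N replicate 2 or ZM447439 2N replicate 1 (adjusted p = 0.0445 and 0.0284). In 4N cells the differences were -1.96 (SE 0.10) for E2F1, -1.50 (SE 0.15) for E2F2 and -0.93 (SE 0.09) for RBL1, and 2N cells had -1.98 (SE 0.10), -1.68 (SE 0.15) and -0.88 (SE 0.09). E2F8 differed by -0.58 (SE 0.17, adjusted p = 0.0117) in 4N and by -1.14 (SE 0.17) in 2N cells, and the 4N call was lost without cytochalasin D 4N replicate 3 (adjusted p = 0.0522). E2F3 (-0.45, SE 0.12), RB1 (-0.28, SE 0.10) and E2F4 (-0.16, SE 0.06) were also lower in 4N cells. The RB1 and E2F4 calls were each lost without any 1 of 4 libraries, with adjusted p up to 0.132 and 0.133, and after median-ratio rescaling (adjusted p = 0.0603 and 0.0720). For RB1 these were cytochalasin D 4N replicates 2 and 3 and ZM447439 4N replicates 1 and 3, and for E2F4 cytochalasin D 4N replicates 1 and 2 and ZM447439 4N replicates 2 and 3. E2F7 did not pass in either sort (-0.45 and -0.42, adjusted p = 0.0807 and 0.116), but did with replicate number as a block (adjusted p = 0.0126 and 0.0223). E2F3 in 2N cells did not pass (-0.18, adjusted p = 0.230), but did without the RN7SL128P reads (-0.34, adjusted p = 0.00159). In 2N cells 7 genes passed without the 6 libraries that stand apart, as did 53.6% of all genes. Because the labels give no dose or time of their own for cytochalasin D, the doses cannot be matched.

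Against untreated 2N cells, the sort with the starting DNA content, 4N cells of both drugs gave calls for 9 of 10 genes, 8 lower and RBL2 higher, with E2F5 again not passing (background 67.8% for cytochalasin D, 35.9% lower and 31.9% higher, and 46.3% for ZM447439, 24.4% lower and 22% higher). E2F1 differed by -4.06 (SE 0.10), a 16.7-fold lower level, in cytochalasin D 4N cells and by -2.11 (SE 0.10) in ZM447439 4N cells. RBL2 differed by 0.50 (SE 0.06) and 0.36 (SE 0.06). The weakest ZM447439 call, E2F7 (-0.59, SE 0.20, adjusted p = 0.0252), was lost without untreated 2N replicate 1 or 2 or ZM447439 4N replicate 2 or 3 (adjusted p between 0.0676 and 0.0923).

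Between sorts of untreated cells the family split. E2F1 and E2F2 were lower in 4N than in 2N cells, and E2F5, E2F8 and the 3 pocket proteins were higher, so 7 of 10 passed (background 20.4% of tested genes, 13.7% higher and 6.68% lower). E2F1 differed by -0.88 (SE 0.10, adjusted p = 1.23e-05), a 1.84-fold lower level, and E2F2 by -0.73 (SE 0.15, adjusted p = 0.00247). RBL1 differed by 0.56 (SE 0.09, adjusted p = 0.000417), E2F5 by 0.36 (SE 0.06, adjusted p = 0.000766) and E2F8 by 0.56 (SE 0.17, adjusted p = 0.0288). For RB1 the difference was 0.29 (SE 0.10, adjusted p = 0.0468) and for RBL2 0.19 (SE 0.06, adjusted p = 0.0240). E2F3 (-0.13), E2F4 (-0.02) and E2F7 (0.40, SE 0.20, adjusted p = 0.196) did not pass. With replicate number within the treatment as a block E2F7 did (adjusted p = 0.00474), and so did 33% of all genes. The RB1 call was lost without any 1 of 11 libraries, among them all 6 untreated ones (adjusted p between 0.0507 and 0.171). The others were cytochalasin D 2N replicate 2, cytochalasin D 4N replicates 2 and 3, ZM447439 2N replicate 2 and ZM447439 4N replicate 3. Quantile normalization left 4 genes called, without E2F8, RB1 and RBL2. E2F8 was also lost without untreated 2N replicate 1 or 3 or untreated 4N replicate 1 or 3 (adjusted p up to 0.114), and RBL2 without untreated 2N replicate 2 or untreated 4N replicate 1 or 3 (adjusted p up to 0.119). Without untreated 4N replicate 1 or 3, 4 genes were called.

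Between sorts of drug-treated cells, no member passed. Under cytochalasin D the background was 0.00497% (1 of 20106 genes), and 2 members, E2F7 and E2F8, had an unadjusted p under 0.05, as 5.28% of all genes did. E2F7 differed by 0.61 (SE 0.20, adjusted p = 0.620) and E2F8 by 0.53 (SE 0.17, adjusted p = 0.572). With replicate number within the treatment as a block, E2F7 passed (adjusted p = 0.0234), and 0.627% of all genes did. Without cytochalasin D 2N replicate 1 alone, E2F8 passed (0.78, adjusted p = 0.0297), and without the 6 libraries that stand apart E2F7, E2F8 and RBL1 passed as higher in 4N cells, in a fit that keeps the closest pair of each group and calls 10.5% of all genes. Under ZM447439 the background was 7.63% (4.92% higher and 2.71% lower). An unadjusted p under 0.05 was reached by 3 members, E2F7, RBL1 and E2F1, and by 24.3% of all genes. With voom weights no member was called in either drug. RBL1 differed by 0.23 (SE 0.09, adjusted p = 0.138) and E2F1 by -0.22 (SE 0.10, adjusted p = 0.163). E2F7 differed by 0.65 (SE 0.20, adjusted p = 0.0632) and RB1, with an unadjusted p of 0.0565 by limma, by 0.20 (SE 0.10, adjusted p = 0.221). With replicate number within the treatment as a block E2F7 and RB1 passed (adjusted p = 0.000919 and 0.0111), and 21.8% of all genes did. Both also passed without ZM447439 2N replicate 1 (0.94 and 0.32, adjusted p = 0.000651 and 0.0175), and without the 6 libraries E2F7, RB1 and RBL1 were higher (41.8% of all genes called). For E2F1 the 95% interval of the 4N minus 2N difference was -0.40 to 0.01 under cytochalasin D and -0.43 to -0.02 under ZM447439.

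The test of the difference itself compared the 4N minus 2N difference of drug-treated cells with that of untreated cells. For E2F1 it was 0.69 (SE 0.13, adjusted p = 0.00513) with cytochalasin D and 0.66 (SE 0.13, adjusted p = 0.00611) with ZM447439, so the lower level in 4N cells was smaller under either drug. E2F2 gave 0.76 (SE 0.21, adjusted p = 0.0364) with cytochalasin D and 0.58 (SE 0.21, adjusted p = 0.0878) with ZM447439. For E2F5 the values were -0.31 (SE 0.09, adjusted p = 0.0435) and -0.40 (SE 0.09, adjusted p = 0.0108). In all, 3 of 10 members passed with cytochalasin D (background 8.27%, 2.42% positive and 5.85% negative) and 2 of 10 with ZM447439 (background 11.2%, 4.27% positive and 6.97% negative). With replicate number within each treatment as a block 5 passed with ZM447439, E2F2, E2F8 and RBL2 in addition (adjusted p = 0.00615, 0.0128 and 0.0122). In that fit 25.6% of all genes passed. The cytochalasin D calls for E2F2 and E2F5 were lost without any 1 of 9 and 13 libraries (adjusted p up to 0.0906 and 0.108), which for both genes included cytochalasin D 2N replicates 2 and 3, cytochalasin D 4N replicate 2, untreated 2N replicates 2 and 3 and untreated 4N replicates 1 and 3. Without any 1 of these 7, E2F1 alone passed. With ZM447439, 4 passed without cytochalasin D 2N replicate 1, E2F2 and E2F8 in addition. Both tests share the untreated libraries.

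**Figure D4:**
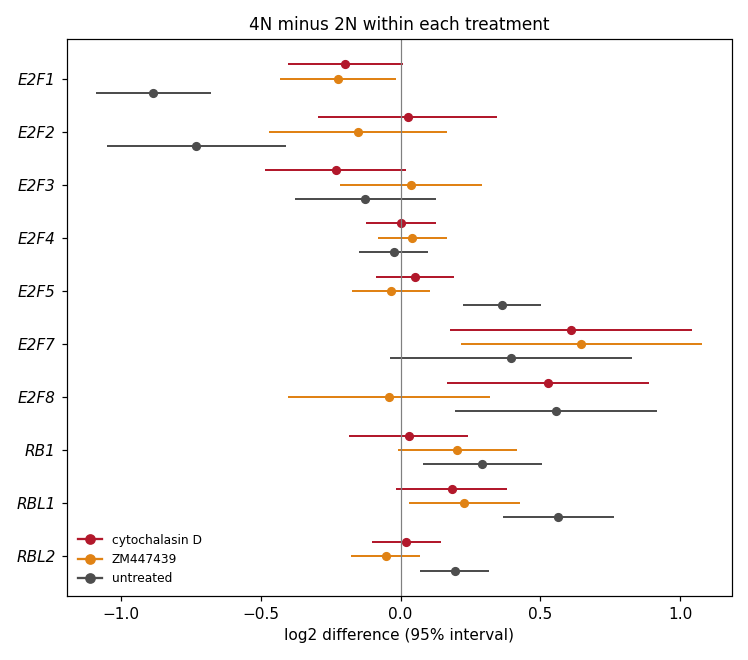
Log2 difference (x) of 4N from 2N cells within each treatment for the 10 genes, with 95% intervals from limma. In untreated cells E2F1 and E2F2 lie left of 0 and RBL1, E2F5 and E2F8 right of it; under the drugs the E2F1 values are -0.20 and -0.22.

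Partners and targets of the family were read from lists. TFDP1, the main DP partner, fell under both drugs, with differences of -1.43 (SE 0.05) and -0.90 (SE 0.05) in 4N cells and -1.33 (SE 0.05) and -0.95 (SE 0.05) in 2N cells for cytochalasin D and ZM447439 in turn. TFDP2, the other DP partner, rose, with differences of 0.75 (SE 0.08) and 0.62 (SE 0.08) in 4N cells and 0.41 (SE 0.08) and 0.33 (SE 0.08) in 2N cells. E2F6, a repressor that works without pocket proteins, fell in 2N cells (-0.38 and -0.21, adjusted p = 0.000291 and 0.0233) and did not pass in 4N cells (-0.11 and 0.04). TFDP3 was at 0.0113 RPKM or less and was not tested. In the untreated sorts TFDP2 and E2F6 were lower in 4N cells, with differences of -0.33 (SE 0.08) and -0.33 (SE 0.07), and TFDP1 did not pass (0.11, SE 0.05).

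Of 34 known E2F target genes of S phase, 33 were lower and none higher in cytochalasin D 4N than in untreated 4N cells (median -2.82; 40% of all tested genes lower), and 31 were lower and 1 higher in ZM447439 4N cells (median -1.38; 32.4% of all tested genes lower). In 2N cells all 34 were lower under each drug (medians -3.25 and -1.77), where 35.5% and 29.6% of all tested genes were lower. The medians over all tested genes were -0.06, -0.04, -0.01 and -0.01 in these comparisons. RRM2, a ribonucleotide reductase subunit, differed by -4.17 (SE 0.21) in cytochalasin D 4N and by -2.25 (SE 0.21) in ZM447439 4N cells. CCNA2 (cyclin A2) differed by -4.14 (SE 0.23) and -2.58 (SE 0.23), and MYBL2, an S-phase transcription factor, by -4.02 (SE 0.19) and -2.11 (SE 0.19). For MCM2, a subunit of the replicative helicase, the values were -2.80 (SE 0.07) and -1.13 (SE 0.07). UNG (uracil-DNA glycosylase) did not pass in cytochalasin D 4N cells (-0.07, SE 0.12). The exceptions in ZM447439 4N cells were UNG, which was higher (0.45, SE 0.12), and CCNE1 and CCNE2, which did not pass. In the untreated sorts 17 of the 34 were lower and 4 higher in 4N cells, where 6.68% of all tested genes were lower and 13.7% higher. UNG (-2.09, SE 0.12), CCNE2 (-1.96, SE 0.13) and CCNE1 (-1.95, SE 0.14) were lower and CCNA2 (1.63, SE 0.23) higher. In the difference between drug and untreated sorts 10 were called with cytochalasin D and 12 with ZM447439, all positive as for E2F1, where 2.42% and 4.27% of all tested genes were called positive. Of the 29 target genes with a promoter window, 16 (55.2%) held an E2F motif of the 4 spellings, against 4.0% of 27305 genes.

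Among genes that act on pocket proteins, CCND1 (cyclin D1) differed by -1.72 (SE 0.25, adjusted p = 1.78e-05) in cytochalasin D 4N and by -0.82 (SE 0.25, adjusted p = 0.0119) in ZM447439 4N cells. Of 7 tested cyclin and kinase genes, 7 were lower in cytochalasin D 4N and 4 in ZM447439 4N cells, none higher, and 6 were lower in 2N cells under each drug. Of all tested genes, 40% and 32.4% were lower in 4N cells under cytochalasin D and ZM447439, and 35.5% and 29.6% in 2N cells. CCNE1 (cyclin E1, also on the target list) differed by -0.52 (SE 0.14) in cytochalasin D 4N and -2.45 (SE 0.14) in cytochalasin D 2N cells. CDK2 differed by -3.09 (SE 0.18) in cytochalasin D 4N and -1.92 (SE 0.18) in ZM447439 4N cells, although its reads cannot be told apart from those of PMEL on the other strand. Of 7 CDK inhibitor genes, 4 were higher and 2 lower in cytochalasin D 4N cells, and 3 higher and 2 lower in ZM447439 4N cells, with 72.2% and 57.1% of all tested genes called in these comparisons. CDKN1A (p21) differed by 1.82 (SE 0.53, adjusted p = 0.00597) and 2.01 (SE 0.53, adjusted p = 0.00430), and CDKN1C (p57) by 2.31 (SE 0.28) and 0.98 (SE 0.28). CDKN2C (p18) differed by -2.08 (SE 0.12) and -1.77 (SE 0.12), and CDKN2D (p19) by -1.64 (SE 0.13) and -2.13 (SE 0.13). CDKN1B (p27) did not pass in 4N cells (-0.08 and -0.19, SE 0.12). Under ZM447439 the 2N cells differed from this: CDKN1B was higher (0.42, SE 0.12, adjusted p = 0.00875). CDKN1A (0.98, SE 0.53, adjusted p = 0.126) and CDKN1C (0.63, SE 0.28, adjusted p = 0.0697) did not pass there. The higher CDKN1B level in 2N cells was not particular to ZM447439. Its 4N minus 2N difference was 0.64 (SE 0.12) untreated and 0.16 (SE 0.12) under cytochalasin D, while cytochalasin D 4N cells were near untreated 4N cells (-0.08). In the untreated sorts CDKN2D (1.91, SE 0.13), CDKN2C (1.33, SE 0.12) and CDKN1B (0.64, SE 0.12) were higher in 4N cells. Of 9 tested corepressor genes 8 passed in cytochalasin D 4N cells, 5 lower and 3 higher (of all tested genes 40% were lower and 32.2% higher), led by SUV39H1 (-2.81, SE 0.10), a histone methyltransferase, and DNMT1 (-1.72, SE 0.06), the maintenance DNA methyltransferase. In ZM447439 4N cells 6 passed, 4 lower and 2 higher (57.1% of all tested genes). CCNE2, CCNA2, MCM2 and other listed targets, RFC4 and FEN1 among them, each overlap another gene on the opposite strand. An unknown share of their reads comes from it. SUV39H1 overlaps ENSG00000232828 on the opposite strand, which had 94.7% to 98.7% of its reads, so these genes cannot be told apart.

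**Figure D5:**
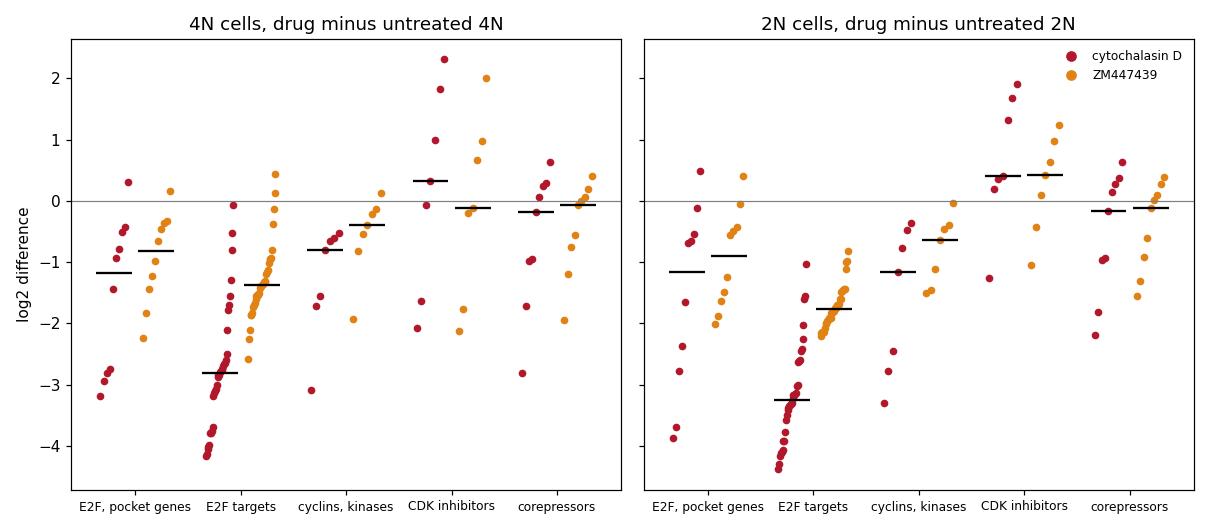
Log2 difference (y) of drug from untreated cells for each gene of the family and of 4 lists (E2F targets, cyclins and kinases, CDK inhibitors, corepressors), in 4N (left) and 2N cells (right), with the median as a bar. E2F targets lie lowest, with medians of -2.82 and -1.38 in 4N cells, and CDK inhibitors spread to both sides of 0.

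Across the 18 libraries, the genes whose log2 values were most like those of E2F1 were MCM6, BRI3BP, MCM2, WDR76 and CDCA7 (Pearson r between 0.996 and 0.998). Most like E2F8 were CSRP3-AS1, which shares its reads, FBXO5, BARD1, EZH2 and ZGRF1 (r between 0.991 and 1.000). Most like RB1 were HSP90AA2P, RTTN, TMEM151B, ENSG00000258749 and CCDC85C (r between 0.990 and 0.993). RBL2 was matched most closely by SNX1, ZBTB22, ARNT, BSDC1 and SLU7 (r between 0.969 and 0.977). These are descriptions over 18 libraries that share 6 groups and 3 treatments, so any gene that follows the treatments gives a high r.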

How the data were processed

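Poly-A RNA from sorted RPE1 cells was made into non-stranded TruSeq libraries, per the labels' protocols. The authors deposited RPKM values for 57773 Ensembl genes in 18 libraries. Per the submitters' processing notes, CASAVA 1.8.2, TopHat2, edgeR and the hg19 build were used; no source used here names the read counter. The deposited RPKM values are per kilobase of genomic span: with GENCODE v29 spans, 45130 of 52338 genes (86.2%) gave whole reads in all libraries within 0.01 read, and for the rest, E2F3, E2F5 and RB1 among them, the span used to recover reads was taken from the values. Intron reads and reads of nested or antisense genes therefore count towards a gene. For the tests, values of all genes were multiplied by the GENCODE v29 span to RPM. For RB1 that span is 295711 bases, against 178236 from the values, a factor that is the same in every library. Then limma 3.58.1 (R 4.3.3, trend) was fitted to log2(RPM + 0.5) with 1 mean per group over all 18 libraries. It covered the 20106 genes (34.8% of the table) with a mean of at least 0.5 RPM. Benjamini-Hochberg adjustment was made over them in each of 13 comparisons. Fold changes understate low genes. The fit was tested on simulated data. The simulated libraries were drawn independently, with none standing apart and no deviations shared between libraries, so they give no error rate for these data. Exon length is the union of GENCODE v29 exons. Python 3.11.15, numpy 2.4.6, pandas 2.3.3 and matplotlib 3.10.9 were used, and promoter sequences came from RefSeq. The precision of a value is set by its reads and covers counting error only.

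Same-numbered 4N and 2N libraries of a treatment deviated together in all 9 pairs (correlation of deviations from the group mean 0.25 to 0.76), as did same-numbered libraries of the 2 drugs (0.35 to 0.61). A fit with a block was therefore made as an alternative, and the reported values have no block. Within a treatment, and for the tests of a difference between sorts, the block was each treatment and number together. Between treatments it was the number alone. The labels do not say what a number shares. Libraries with different numbers reached correlations of -0.68 to 0.58, and 6 of the 9 4N libraries correlated best with their own number. Drug and untreated libraries numbered 2 did not deviate together (-0.25 to -0.14). Other alternatives were the pseudocount, the filter, RPKM as deposited, rescaling, quantile normalization, no trend, only the libraries compared and leaving out each library; the span read from the values, voom weights, the fit without 6 libraries and E2F3 without RN7SL128P reads were chosen after seeing the data. Named genes were all 10 members, the DP list, and in other lists the 4 called genes of largest difference plus 10 preset genes. The members and lists were chosen with earlier results of these data known.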

Additional observations from a re-analysis of the deposited data

Results flagged for a closer look

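For 3 genes the test of the difference between drug-treated and untreated cells in their 4N minus 2N difference passed, by limma (Benjamini-Hochberg adjusted over 20106 genes). E2F1 gave 0.69 (SE 0.13, adjusted p = 0.00513) with cytochalasin D and 0.66 (SE 0.13, adjusted p = 0.00611) with ZM447439. E2F2 gave 0.76 (SE 0.21, adjusted p = 0.0364) with cytochalasin D and did not pass with ZM447439 (0.58, adjusted p = 0.0878). E2F5 gave -0.31 (SE 0.09, adjusted p = 0.0435) with cytochalasin D and -0.40 (SE 0.09, adjusted p = 0.0108) with ZM447439. The 4N minus 2N difference of E2F1 was -0.20 with cytochalasin D, -0.22 with ZM447439 and -0.88 untreated. That of E2F2 was 0.03 with cytochalasin D and -0.73 untreated, and that of E2F5 was 0.05 with cytochalasin D, -0.03 with ZM447439 and 0.36 untreated. The cytochalasin D calls of E2F2 and E2F5 were not stable: they were lost without any 1 of 9 and of 13 libraries. E2F2 was also lost with a pseudocount of 0.1 RPM (adjusted p = 0.0713), with voom weights (0.0621) and with no filter (0.0750). E2F5 was also lost with median-ratio rescaling (adjusted p = 0.0836), quantile normalization (0.136), no filter (0.0607) and the libraries compared alone (0.0555).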

How the results depend on the processing

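No called difference of a member changed sign under any of the 32 alternatives. The all-gene median moved by at most 0.07 under the scaling alternatives. Values below are counts of the 10 genes called. A count given without the share of all genes called in the same fit is not a result about this family. With RPKM as deposited, where the filter leaves 4 of the 10, 4 were called in each comparison of a drug with untreated cells, 2 and 1 in the 4N and 2N comparisons of the drugs, 1 between untreated sorts and 1 in each test of a difference between sorts. Quantile normalization gave 4 between untreated sorts. For the test of a difference between sorts, no filter gave 1 with cytochalasin D, and a pseudocount of 2 RPM and only the libraries compared each gave 4 with ZM447439; the cause was not tested. With the replicate block the counts were 1 between cytochalasin D sorts, 2 between ZM447439 sorts and 5 in the ZM447439 test of a difference between sorts. The shares of all genes called in these fits were 0.627%, 21.8% and 25.6%. The block also added E2F7 calls between untreated sorts and between the drugs. In the cytochalasin D test of a difference between sorts it added RB1 (adjusted p = 0.0165). Outside these the block changed no call. Without the 6 libraries that stand apart, 3, 3, 7, 5 and 6 were called between cytochalasin D sorts, between ZM447439 sorts, between the drugs in 2N cells, and in the cytochalasin D and ZM447439 tests of a difference between sorts. This leaves the closest pair of each group, so the residual spread shrinks by construction, and the shares of all genes called were 10.5%, 41.8%, 53.6%, 25.8% and 39.5%.

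Leaving out 1 library at a time gave 4 to 8 between untreated sorts, 0 to 1 between cytochalasin D sorts, 0 to 2 between ZM447439 sorts, 10 and 8 to 10 for cytochalasin D and ZM447439 against untreated in 4N cells, 9 for each drug in 2N cells, 9 and 8 to 9 for 4N drug cells against untreated 2N cells, 5 to 9 and 4 to 5 between the drugs in 4N and 2N cells, and 1 to 3 and 2 to 4 for the tests of a difference between sorts. The shares of all genes called in these fits are not given, so the ranges are not a result about this family. The reads of E2F8, E2F5 and RBL2 include an unknown share from genes on the other strand.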
